A study of Capra hircus with 9 samples.

Results

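The transcriptome of goat embryos at the 8-cell stage was compared between embryos made by in vitro fertilization (IVF-8c) and embryos made by somatic cell nuclear transfer (SCNT-8c). A transcript entered the comparison when it reached 10 FPKM (fragments per kilobase of transcript, scaled to the mapped fragments of the library) in at least 1 of these 2 libraries. By this rule 5363 of 30147 mRNAs and 2388 of 36240 lncRNAs were taken, which is 7751 of 66387 transcripts in all. The 2 libraries are 2 of the 9 in the series. Another embryo library, of 2-cell IVF embryos (IVF-2c), was not used to choose transcripts and its level is given beside the others.

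Each condition was 1 library from a pool of 15 embryos, so no difference has a replicate check and no test was run. The oocytes for both kinds of embryo were matured in vitro. IVF-8c embryos came from oocytes fertilized in vitro. SCNT-8c embryos came from enucleated oocytes fused with goat fetal fibroblasts (GFFs), which the methods trace to a female fetus while the labels give the margin of the ear as the origin of GFFs. The GFFs were kept in low serum before transfer, and the SCNT embryos were electrofused and activated chemically. These steps cannot be told apart from the rest of the contrast. The sex of the IVF embryos is not given in the sources used here. Both kinds of embryo were lysed and their cDNA was amplified with a low-input SMART-Seq kit before fragmentation.

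In mammals the first divisions run on RNA and protein stored in the oocyte, and embryonic genome activation (EGA) then replaces much of this maternal RNA with newly made transcripts. In ruminants the main wave of EGA falls around the 8-cell stage. In SCNT the nucleus of a differentiated cell has to be reset by the oocyte cytoplasm, and genes that were silent in the donor cell have to be switched on at the same time as in a fertilized embryo.

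The FPKM scale of the 2 libraries was close. FPKM is already scaled to the mapped fragments, so this is no check of depth or RNA content. The mRNA FPKM came to a sum of 1128122 for IVF-8c, against 1084391 for SCNT-8c. The median-ratio factors were 0.998 and 1.002. FPKM is a share of the library, so fewer cells with a transcript and less of it per cell cannot be told apart. Of 17 oocyte and early embryo markers, 10 were matched in the mRNA table, and all 10 were above 10 FPKM in both libraries, among them BTG4 (7830 FPKM in IVF-8c, 9371 in SCNT-8c) and GDF9 (293.2 and 367.7). Of 15 fibroblast markers 8 were matched, none was at 0, and their FPKM summed to 84.4 in IVF-8c and 97.1 in SCNT-8c, against 146.7 in IVF-2c. The highest of them was DCN, a matrix proteoglycan, at 56.3 and 57.4 FPKM, and 116.6 in IVF-2c. LUM was at 9.53 FPKM in IVF-8c, 15.7 in SCNT-8c and 3.56 in IVF-2c, and FN1 at 10.7, 14.6 and 24.4. The collagens COL1A2 and COL3A1 were at 3.46 FPKM or less in each 8-cell library. All matched fibroblast markers except PDGFRA and THY1 were higher in SCNT-8c than in IVF-8c, with DCN close to equal. COL3A1 and POSTN were at 1.43 FPKM or less in both. In a longer fibroblast list 4 mRNAs reached 10 FPKM, and 1 of them was higher in IVF-8c. This was TIMP1, at 16.6 FPKM against 8.26 in SCNT-8c. Of 12 cumulus and granulosa markers 7 were matched, with sums of 54.3 and 79.3 FPKM. Most of that difference was TNFAIP6, a hyaluronan-binding protein of the cumulus matrix, at 51.2 FPKM in SCNT-8c against 26.6 in IVF-8c, while FSHR was at 0 in SCNT-8c and 0.0326 in IVF-8c. The part of these cells in the results was not tested.

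Most mRNAs had nearly the same level in both kinds of embryo. A transcript is called higher in 1 library here when the log2 ratio of FPKM + 1 (IVF-8c over SCNT-8c) was beyond 1, that is, 2-fold. Of the 5363 mRNAs, 247 were higher in IVF-8c (4.61%) and 124 were higher in SCNT-8c (2.31%), and 93.1% lay within the limit. The median log2 ratio was -0.02, and 5% to 95% of the mRNAs lay between -0.75 and 0.96. Beyond a log2 ratio of 2, that is, 4-fold, 65 mRNAs were higher in IVF-8c (1.21%) and 21 in SCNT-8c (0.392%). The most abundant mRNAs were close to equal. TMSB4X, an actin-binding peptide, was at 176956 FPKM in IVF-8c and 172493 in SCNT-8c. The securin PTTG1 was at 31592 and 31961, and the cyclin-dependent kinase subunit CKS2 at 26364 and 25158. The calmodulin gene CALM2 was at 11251 and 11469, and MAGOH, of the exon junction complex, at 11801 and 14209. FAU, which encodes a ribosomal protein fused to a ubiquitin-like peptide, was an exception among the most abundant, with 12915 FPKM in IVF-8c, 7492 in SCNT-8c and 759.1 in IVF-2c, a log2 ratio of 0.79.

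**Figure D1:**
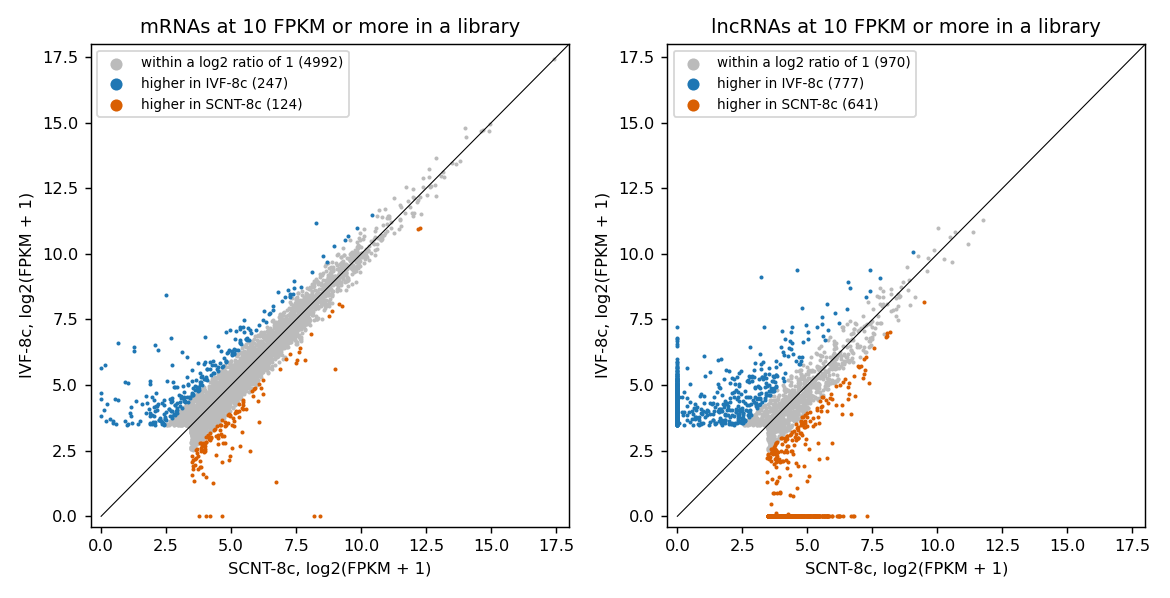
Level of each mRNA (left) and lncRNA (right) that reached 10 FPKM in IVF-8c or SCNT-8c, as log2(FPKM + 1) in SCNT-8c (x axis) and IVF-8c (y axis). Each point is 1 transcript, the line marks equal levels, and colours mark a log2 ratio beyond 1. The mRNAs lie along the line, with 247 above and 124 below the limit, while 777 and 641 of the 2388 lncRNAs lie beyond it and many are at 0 in 1 library.

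The share of mRNAs beyond the limit was larger at low levels. At 10 to 20 FPKM in the higher library 7.99% of 1628 mRNAs were beyond it, and at 100 to 1000 FPKM 5.40% of 1130. In every level class the mRNAs higher in IVF-8c outnumbered those higher in SCNT-8c. At the edge of the level rule, XM_005698532.2 was taken with 9.11 FPKM in SCNT-8c against 10.003 in IVF-8c, and XM_013968485.1 was left out with 6.55 in SCNT-8c and 9.99 in IVF-8c.

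A gene name could be given to 2874 of the mRNAs (53.6%). Of these named mRNAs 143 were higher in IVF-8c (4.98%) and 56 in SCNT-8c (1.95%). Among mRNAs with a symbol other than a LOC number, the largest ratio was that of SST, which encodes the peptide hormone somatostatin. IVF-8c had 49.6 FPKM of it, while SCNT-8c and IVF-2c list it at 0, so no fold is given. GUCA2A and GIP, the next in this order, also encode secreted peptides. The peptide gene CRSP-2, given below, had the opposite direction, and the share of such genes over all mRNAs was not taken. GUCA2A, which encodes guanylin, was at 35.1 FPKM in IVF-8c, 2.66 in SCNT-8c and 2.04 in IVF-2c (log2 ratio 3.30). The incretin hormone GIP was at 19.9, 1.53 and 0 FPKM (3.05). The median over all mRNAs in the comparison was 30.6 FPKM in IVF-8c.

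Genes of other functions followed. PLVAP, a protein of endothelial fenestrae, was at 16.9 FPKM in IVF-8c, 1.23 in SCNT-8c and 0.0378 in IVF-2c. CSTA, an inhibitor of cysteine proteases, was at 14.5, 1.17 and 2.998 FPKM. HORMAD1, a protein of the meiotic chromosome axis, was at 18.4, 2.00 and 0.714. RAB7B, a small GTPase of endosomal traffic, was at 22.5 and 2.88 FPKM and listed at 0 in IVF-2c. In PLVAP, HORMAD1 and RAB7B the SCNT-8c level was above IVF-2c and below IVF-8c, and in CSTA it was below both. COMMD8, of a family that regulates ubiquitin ligases, had the opposite course, with 66.1 FPKM in IVF-8c, 8.98 in SCNT-8c and 127.6 in IVF-2c, so that SCNT-8c was the lowest of the libraries (log2 ratio 2.75).

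For 2 of the 10 mRNAs with the largest ratios, both of splicing proteins, the difference lay in a single transcript of the gene. RBM39 transcript XM_005688511.2 was at 11.5 FPKM in IVF-8c and 0.886 in SCNT-8c (log2 ratio 2.73), and SF3B1 transcript XM_013970657.1 at 13.1 and 1.19 (2.69). Summed over all transcripts in the table, RBM39 was at 95.2 and 70.0 FPKM and SF3B1 at 43.5 and 33.6 FPKM, both within the limit. Transcripts of 1 gene share most of their reads, and the division among them is an estimate.

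**Figure D2:**
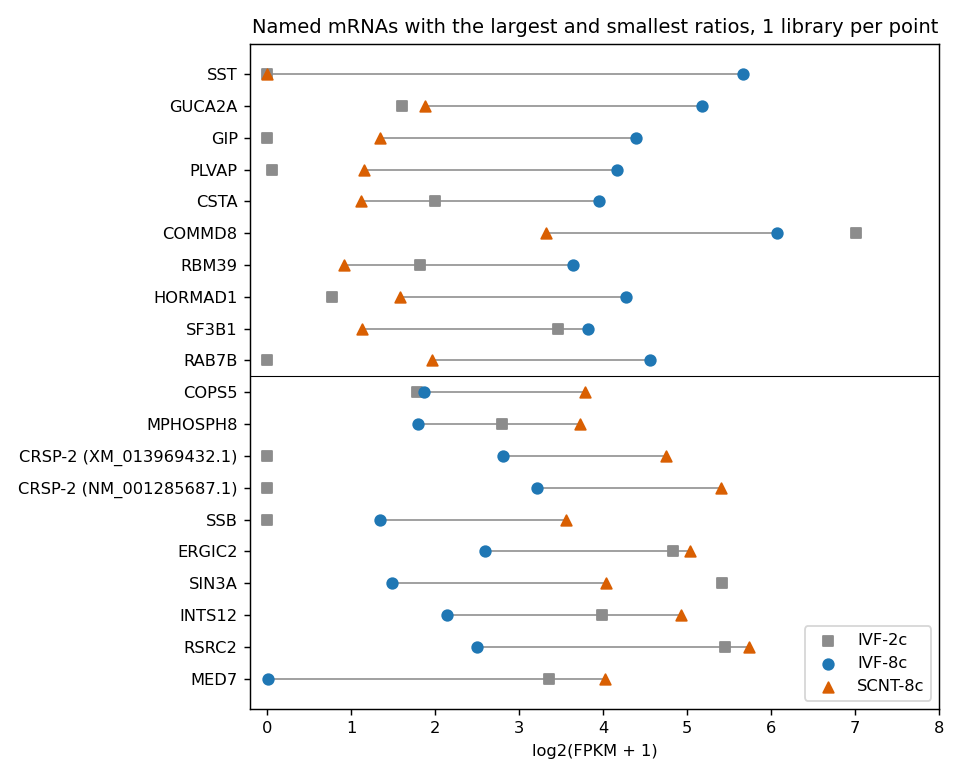
Level of the 10 mRNAs with a symbol other than a LOC number that had the largest ratios (upper part) and the 10 with the smallest (lower part) as log2(FPKM + 1) in the 3 embryo libraries. Each point is 1 library and grey lines join the 2 eight-cell libraries. SST was at 0 in IVF-2c and SCNT-8c, and MED7 transcript XM_013965727.1 was near 0 in IVF-8c.

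Among the 10 of these mRNAs with the smallest ratios, single transcripts were the rule. MED7, a subunit of the Mediator complex, had a transcript (XM_013965727.1) at 0.00349 FPKM in IVF-8c, 15.2 in SCNT-8c and 9.21 in IVF-2c. Its other transcript was at 49.3 and 44.3 FPKM in the 8-cell libraries, and the gene summed to 49.3 and 59.6. RSRC2, a protein with an arginine and serine rich region, had transcript XM_005691390.2 at 52.2 FPKM in SCNT-8c against 4.66 in IVF-8c and transcript XM_005691393.2 at 39.0 against 147.8, in the opposite direction. The gene summed to 440.6 FPKM for IVF-8c and 330.5 for SCNT-8c. SSB, which binds the ends of RNA polymerase III transcripts, likewise had XM_013968988.1 at 1.54 FPKM for IVF-8c against 10.8 for SCNT-8c and XM_005675985.1 at 21.2 and 5.34, beside a sum of 1076 and 1065.

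The same held for genes of other complexes. INTS12, of the Integrator complex, had a transcript at 29.4 FPKM in SCNT-8c against 3.40 in IVF-8c, and summed to 79.8 against 86.4. ERGIC2, of transport between endoplasmic reticulum and Golgi, was at 5.05 FPKM for IVF-8c against 31.8 for SCNT-8c and summed to 288.2 and 274.2. MPHOSPH8, of the HUSH silencing complex, was at 2.46 and 12.2 and summed to 39.7 and 52.0, and COPS5, of the COP9 signalosome, was at 2.64 and 12.8 and summed to 37.3 and 50.5. All of these sums lay within the limit.

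In SIN3A and CRSP-2 the whole gene in the table was higher in SCNT-8c. SIN3A, the scaffold of a histone deacetylase corepressor, was at 1.81 FPKM in IVF-8c, 15.4 in SCNT-8c and 41.6 in IVF-2c (log2 ratio -2.55) and had 1 transcript. CRSP-2, which encodes a calcitonin receptor-stimulating peptide, had 2 transcripts at 8.30 and 5.98 FPKM in IVF-8c and 41.2 and 25.9 FPKM in SCNT-8c, and IVF-2c lists both at 0.

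With FPKM summed per gene the difference between directions was wider. Of 2559 named genes at 10 FPKM or more, 119 were higher in IVF-8c and 26 in SCNT-8c. Of the 143 named mRNAs higher in IVF-8c, 116 belonged to a gene whose sum was also beyond the limit, against 30 of the 56 higher in SCNT-8c. Genes with more than 1 transcript in the table held 50 of the 143 and 36 of the 56. Among the 26 genes, chosen here after their values were seen, were CD81, a tetraspanin of the egg surface, at 1969 FPKM in IVF-8c, 4699 in SCNT-8c and 15646 in IVF-2c, and TEX12, of the meiotic synaptonemal complex, at 225.8, 463.5 and 150.1 FPKM. CD81 was highest in IVF-2c and TEX12 was not.

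Genes tied to the activation of the embryonic genome mostly had ratios above 0, and few passed the 2-fold limit. The list of EGA factors had 12 mRNAs of 9 genes, of which 2 were higher in IVF-8c (DPPA2 and EIF1AX) and none was in SCNT-8c (4.61% and 2.31% over all mRNAs). Their median log2 ratio was 0.36, and 9 of 12 were above 0, against 48.1% of all mRNAs. DPPA2, an activator of early embryonic genes, was at 34.7 FPKM in IVF-8c, 10.4 in SCNT-8c and 0.654 in IVF-2c (log2 ratio 1.65). EIF1AX, a translation initiation factor used as an EGA marker in ruminants, was at 230.5, 96.9 and 47.0 FPKM (1.24). The level in SCNT-8c was above that in IVF-2c for both. KLF17, a transcription factor of early embryos, was at 87.6 and 46.2 FPKM and listed at 0 in IVF-2c (0.91). The homeobox gene ARGFX was the most abundant of the list at 842.8 FPKM in IVF-8c and 628.0 in SCNT-8c, from 0.106 in IVF-2c (0.42). The elongation factor SUPT4H1 was at 321.9, 177.8 and 1.02 FPKM (0.85). HNRNPA1 (378.4 and 392.4 FPKM in its main transcript) and the chaperone HSPA8 (406.2 and 413.8) were near equality.

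Of 13 matched mRNAs in the list of pluripotency and lineage factors, 5 reached 10 FPKM. Each of the 5 had a ratio above 0 (48.1% over all mRNAs), with a median of 0.94. Besides DPPA2 and KLF17 these were KRT8, a keratin of the trophectoderm, at 25.8 FPKM in IVF-8c, 8.22 in SCNT-8c and 0.217 in IVF-2c (log2 ratio 1.54), and the inhibitors of differentiation ID2 and ID1. ID2 was at 805.9, 418.9 and 1.91 FPKM (0.94) and ID1 at 66.9, 41.5 and 4.001 FPKM (0.68). KRT8 and DPPA2 were the 2 members beyond the limit (4.61% over all mRNAs), and KRT8 reached 10 FPKM only in IVF-8c, the library where it was high. All 5 were at 4.001 FPKM or less in IVF-2c, and all 5 lay between IVF-2c and IVF-8c in the SCNT-8c library. With no minimum level the median of the list was 0.42.

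The list of genes named by the study held 9 genes, of which 7 were in the table of names, and 4 transcripts were matched. For genes without a match no level can be given here. Of the 3 genes that reached 10 FPKM, EIF1AX is given above. TM4SF1, a membrane protein of the tetraspanin-like family, was at 210.1 FPKM in IVF-8c, 115.8 in SCNT-8c and 0.214 in IVF-2c (log2 ratio 0.85). GAPDH, a glycolytic enzyme often used as a reference, was at 34.8, 55.6 and 193.8 FPKM (-0.66), within the limit.

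**Figure D3:**
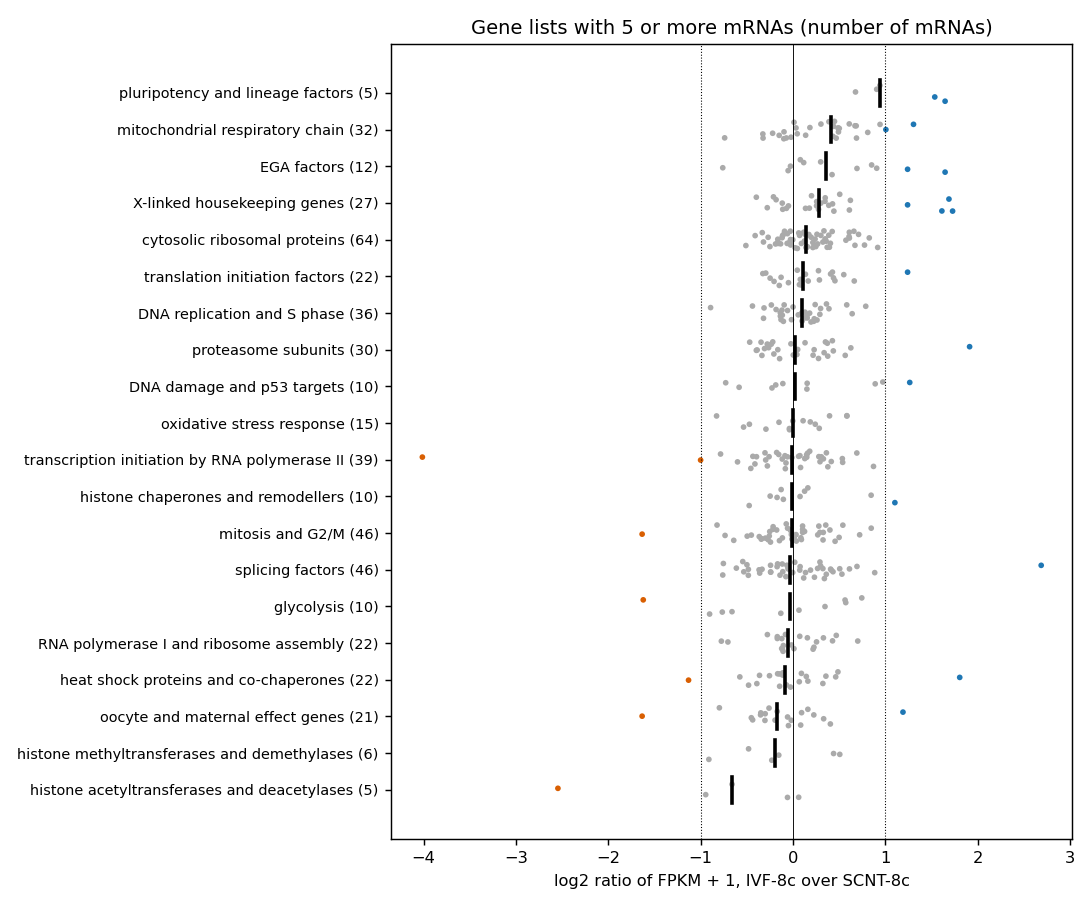
Log2 ratio of FPKM + 1 (IVF-8c over SCNT-8c, x axis) of each mRNA in the gene lists with 5 or more mRNAs, with the number of mRNAs in brackets. Each point is 1 mRNA, black bars are medians, dotted lines mark log2 ratios of -1 and 1, and the vertical spread within a list carries no value. Pluripotency and lineage factors had a median of 0.94 and the respiratory chain 0.41, and ribosomal proteins had no member beyond the limit.

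The list of X-linked housekeeping genes had 27 mRNAs of 21 genes, and it does not hold all X-linked genes. Of these mRNAs 4 were higher in IVF-8c (14.8%, against 4.61% over all mRNAs), none was higher in SCNT-8c, the median was 0.28 and 19 of 27 were above 0, against 48.1% over all mRNAs. The 4 came from 3 genes. RBM3, a cold-inducible RNA-binding protein, had transcripts at 145.7 and 43.2 FPKM (XM_005700788.2) and at 107.9 and 34.6 FPKM (XM_013976462.1) in IVF-8c and SCNT-8c, and its gene sum was 345.7 and 133.9. EBP, an isomerase of cholesterol synthesis, was at 57.5 and 17.1 FPKM (log2 ratio 1.69). EIF1AX was the fourth. The most abundant others had smaller ratios: RPL39 was at 556.5 and 436.5 FPKM (0.35), RPL36A at 427.1 and 279.2 (0.61) and RPS4X at 319.3 and 243.7 (0.39).

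Nuclear genes of the mitochondrial respiratory chain had a median log2 ratio of 0.41 over 32 mRNAs, of which 23 were above 0 (48.1% over all mRNAs). Beyond the limit were 2 (6.25%, near the 4.61% over all mRNAs), both of complex I and both higher in IVF-8c. NDUFA6 was at 420.0 FPKM in IVF-8c, 169.2 in SCNT-8c and 692.1 in IVF-2c (log2 ratio 1.31), and NDUFB11 at 103.9, 51.2 and 13.2 FPKM (1.01). The SCNT-8c level was thus the lowest of the libraries in NDUFA6 and the intermediate one in NDUFB11. The most abundant members differed less and in both directions. ATP5J was at 1505 and 1069 FPKM (0.49), ATP5G3 at 1044 and 1116 (-0.10), NDUFA4 at 942.0 and 1179 (-0.32) and ATP5E at 642.9 and 457.4 (0.49).

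Cytosolic ribosomal proteins had no member beyond the limit in 64 mRNAs, with a median of 0.15 and 41 of 64 above 0. Among all mRNAs 4.61% were higher in IVF-8c, 2.31% were higher in SCNT-8c and 48.1% were above 0. The most abundant were RPS29 at 2767 FPKM in IVF-8c and 1559 in SCNT-8c (log2 ratio 0.83), RPS20 at 2362 and 2262 (0.06), RPS27A at 2030 and 2275 (-0.16) and RPL35A at 1247 and 971.6 (0.36). The list as a whole was higher at the 8-cell stage, and their median level was 440.2 FPKM in IVF-8c, 387.6 in SCNT-8c and 98.8 in IVF-2c. Among 22 mRNAs of translation initiation factors EIF1AX was the only one beyond the limit, and the median was 0.11. The most abundant of them were EIF3E (551.3 and 501.9 FPKM), EIF6 (286.2 and 212.5), EIF4A2 (285.8 and 272.2) and EIF3K (277.3 and 174.6).

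Genes of the oocyte and of maternal effect showed little difference. Of 21 mRNAs 1 was higher in IVF-8c, 1 was higher in SCNT-8c, with a median of -0.17 and 7 of 21 above 0. The shares over all mRNAs were 4.61%, 2.31% and 48.1%. BRDT, a bromodomain protein of germ cells, was at 124.2 FPKM in IVF-8c, 53.8 in SCNT-8c and 39.4 in IVF-2c (log2 ratio 1.19). AURKC, a meiotic kinase, had a transcript at 20.01, 64.2 and 152.5 FPKM (-1.63), and its gene sum was 44.2, 97.6 and 209.9 FPKM (-1.13). The order in AURKC was thus IVF-2c, SCNT-8c, IVF-8c from high to low. The most abundant members were BTG4, an adaptor of mRNA deadenylation, at 7830 and 9371 FPKM (-0.26), the importin KPNA7 at 678.0 and 701.3 (-0.05), UCHL1 at 565.7 and 483.5 (0.23) and MOS, the kinase of metaphase arrest, at 396.6 and 689.9 (-0.80). All 4 were higher in IVF-2c, at 10551, 1645, 1091 and 1724 FPKM.

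In transcription initiation by RNA polymerase II, 39 mRNAs had a median of -0.01, with none higher in IVF-8c and 2 in SCNT-8c (5.13%). For this and the next lists, the shares over all mRNAs were 4.61% and 2.31%. These were the MED7 transcript given above and MED28, another Mediator subunit, at 28.9 FPKM in IVF-8c and 58.9 in SCNT-8c, just beyond the limit. The most abundant were POLR2J at 2672 and 2056 FPKM (0.38), TBPL1 at 835.2 and 884.3 (-0.08), TAF9 at 713.6 and 676.9 (0.08) and MED6 at 545.8 and 489.0 (0.16). The splicing factors, 46 mRNAs with a median of -0.03, had only the SF3B1 transcript beyond the limit. SNRPF (2628 and 2146 FPKM), SNRPB2 (2265 and 2061), SF3B6 (2038 and 1508) and SNRPG (1010 and 806.5) were the most abundant of them. RNA polymerase I and ribosome assembly had 0 of 22 beyond the limit and a median of -0.05, with NOP10 at 1108 and 1205 FPKM and BRIX1 at 897.1 and 852.3.

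Chromatin regulators were thinly represented at 10 FPKM. Their lists are too short to set against the shares over all mRNAs, 4.61% higher in IVF-8c and 2.31% higher in SCNT-8c. Of 5 mRNAs of histone acetyltransferases and deacetylases, SIN3A was beyond the limit. HDAC3, a class I deacetylase, was at 25.8 FPKM in IVF-8c, 50.6 in SCNT-8c and 104.9 in IVF-2c (log2 ratio -0.95), KAT7 at 8.12 and 13.4 (-0.66) and HAT1 at 427.9 and 445.8 (-0.06). Of 6 mRNAs of histone methyltransferases and demethylases 0 were beyond the limit. DPY30, a core subunit of H3K4 methyltransferases, was at 685.0 and 481.6 FPKM in its main transcript (0.51). The demethylase KDM1A had transcripts at 24.2 and 34.2 FPKM (-0.48) and at 6.84 and 13.7 FPKM (-0.91). For DNA methylation and demethylation a single mRNA reached 10 FPKM, GADD45A, at 129.0, 69.1 and 29.7 FPKM in IVF-8c, SCNT-8c and IVF-2c (0.89). Histone chaperones and remodellers had 1 of 10 beyond the limit, a transcript of the chaperone NASP at 19.2 and 8.41 FPKM (1.10), while the NASP gene summed to 79.2 and 79.7. The nucleolar chaperone NPM1 was the most abundant of them at 1616 and 1766 FPKM (-0.13). The list of histone genes could not be matched, because the table of names holds 0 symbols of that kind.

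Stress genes gave single differences, beside shares over all mRNAs of 4.61% higher in IVF-8c and 2.31% higher in SCNT-8c. DNAJC12, a co-chaperone, was at 21.9 FPKM in IVF-8c, 5.54 in SCNT-8c and 0.349 in IVF-2c (log2 ratio 1.81), and the small heat shock protein HSPB6 at 5.85, 14.0 and 4.38 (-1.13), which left the 22 mRNAs of heat shock proteins and co-chaperones at 1 in each direction and a median of -0.09. HSPE1, the mitochondrial co-chaperonin, was their most abundant member at 1197 and 934.0 FPKM (0.36). In the list of DNA damage and p53 targets, DDIT3, a transcription factor of the integrated stress response, had transcripts at 178.6 and 73.7 FPKM (1.27) and at 1482 and 754.2 FPKM (0.97) in IVF-8c and SCNT-8c, and the gene summed to 1661 and 827.9 (1.004). The gene was at 246.3 FPKM in IVF-2c. The other 8 mRNAs of that list were within the limit, and its median was 0.02. Oxidative stress genes had 0 of 15 beyond the limit and a median within 0.01 of 0, with FTH1, the ferritin heavy chain, at 2160 and 2995 FPKM (-0.47) and SOD1 at 1550 and 1591 (-0.04). Of 4 apoptosis regulators 0 were beyond it, and BCL2L10 was at 1344 and 1577 FPKM (-0.23).

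Cell cycle genes were close to equality. The shares beyond the limit over all mRNAs were 4.61% for IVF-8c and 2.31% for SCNT-8c. DNA replication and S phase had 0 of 36 mRNAs beyond the limit and a median of 0.10, with PCNA, the replication clamp, at 4092 FPKM in IVF-8c and 3573 in SCNT-8c (log2 ratio 0.20). Mitosis and G2/M had 1 of 46, the AURKC transcript, and a median of -0.02, with AURKA at 1475 and 1756 FPKM (-0.25). Among 30 proteasome mRNAs the one beyond the limit was PSMG3, an assembly chaperone and no subunit, at 58.7, 14.8 and 7.05 FPKM in IVF-8c, SCNT-8c and IVF-2c (1.91), and the median was 0.02. PSMA4 was at 1122 and 879.2 FPKM (0.35) and PSMA3 at 1088 and 803.2 (0.44).

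Glycolysis had 1 of 10 beyond the limit, higher in SCNT-8c as were 2.31% of all mRNAs, with 4.61% higher in IVF-8c. LDH-A, lactate dehydrogenase A, had a transcript (NM_001285718.1) at 56.8 FPKM in IVF-8c, 177.0 in SCNT-8c and 201.1 in IVF-2c (log2 ratio -1.62) and another at 124.8 and 136.8 (-0.13), and the gene summed to 181.6 and 313.8 (-0.79), within the limit. In the Wnt pathway, 3 mRNAs reached 10 FPKM: the inhibitor DKK1 at 267.7 and 389.9 FPKM (-0.54), the transcription factor LEF1 at 24.97 and 40.7 (-0.68) and the kinase CSNK1A1 at 21.3 and 14.3 (0.54). Of the imprinted genes MEST was at 13.5 and 14.9 FPKM (-0.13). In the lists of fibroblast matrix genes (4 mRNAs) and cumulus genes (3 mRNAs) 0 were beyond the limit.

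Many of the genes higher in IVF-8c lay near each other in the genome. The order of genes was taken from the RefSeq table of the assembly ARS1.2, and the authors' own build is not given in the sources used here. Of 83 named genes higher in IVF-8c that had a measured gene among the 5 protein-coding genes on either side, 30 (36.1%) had such a neighbour that was also higher in IVF-8c. Over all 2008 genes with a measured neighbour, 149 (7.42%) had one. A gene was measured here at 10 FPKM in either 8-cell library, so genes high only in IVF-8c entered through that level. The shares of neighbours are thus a description and no independent result. Of 21 genes higher in SCNT-8c, 0 had a neighbour higher in SCNT-8c, against 2.74% over all genes. There were 6 runs of 3 or more such genes, all of genes higher in IVF-8c and all with LOC numbers in place of symbols, and none was described in the table. The stretches between the nearest named genes were therefore looked at as a whole, after these values had been seen. Because the runs chose the stretches, the counts and medians below describe them and are no independent result. Over all named genes at 10 FPKM or more, 119 of 2559 were higher in IVF-8c. Most genes of the runs, such as LOC102178584, reached 10 FPKM only in IVF-8c. Neighbouring copies of a gene can share reads, so the levels of single members are uncertain.

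In the stretch from TRIM38 to BTN3A3, 8 of the 22 genes with a transcript in the table reached 10 FPKM. Of these 5 were higher in IVF-8c, none was higher in SCNT-8c, all 8 were above 0, and the median log2 ratio was 1.77. LOC102184572 was at 96.8 FPKM in IVF-8c, 0.568 in SCNT-8c and 0.107 in IVF-2c (5.96). LOC102182181 was the most abundant at 389.8, 144.9 and 0.537 FPKM (1.42). LOC102186918 was highest in IVF-2c, at 253.9 and 173.9 FPKM and 503.5 in IVF-2c (0.54).

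From ZNF322 to PRSS16 all 3 genes at 10 FPKM were higher in IVF-8c, with a median of 3.93. LOC102178584 was at 87.0 FPKM in IVF-8c, 1.43 in SCNT-8c and 0.543 in IVF-2c (5.18), LOC102178870 at 21.2, 0.454 and 0.520 (3.93) and LOC102178027 at 176.4, 44.5 and 80.7 (1.96). The first and second of these were at 1.43 FPKM or less in both SCNT-8c and IVF-2c. From HFE2 to BOLA1 4 of 5 genes were higher in IVF-8c. LOC108633254 was at 2337 FPKM in IVF-8c, 303.2 in SCNT-8c and 692.8 in IVF-2c (2.94), and LOC102171676 at 373.3, 112.0 and 21.1 (1.73). The fifth, LOC102173518, was at 102.5, 105.1 and 252.3 FPKM. The 3 stretches also hold 16, 41 and 15 tRNA genes in the table.

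From KRTAP11-1, a keratin-associated protein gene, to CLDN8 all 4 genes at 10 FPKM were higher in IVF-8c, with a median of 3.50, among them LOC100860930 at 90.3 FPKM in IVF-8c, 3.20 in SCNT-8c and 0 in IVF-2c (4.44) and LOC102181431 at 53.7, 5.57 and 0.347 (3.06). From LRRC38 to C16H1orf158 all 8 genes had a ratio above 0 and 3 were beyond the limit, with a median of 0.77. Its most abundant gene, LOC102178473, was at 171.5 and 117.2 FPKM and listed at 0 in IVF-2c (0.55). From NAALAD2 to FOLH1B 3 of 6 were higher in IVF-8c, with LOC102178164 at 76.2, 28.1 and 0.0293 FPKM (1.41), and LOC102178042 at 159.1, 199.7 and 245.0 FPKM was the only one of the 6 below 0. All genes at 10 FPKM in the stretches from KRTAP11-1 and from LRRC38 were under 1 FPKM in IVF-2c.

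**Figure D4:**
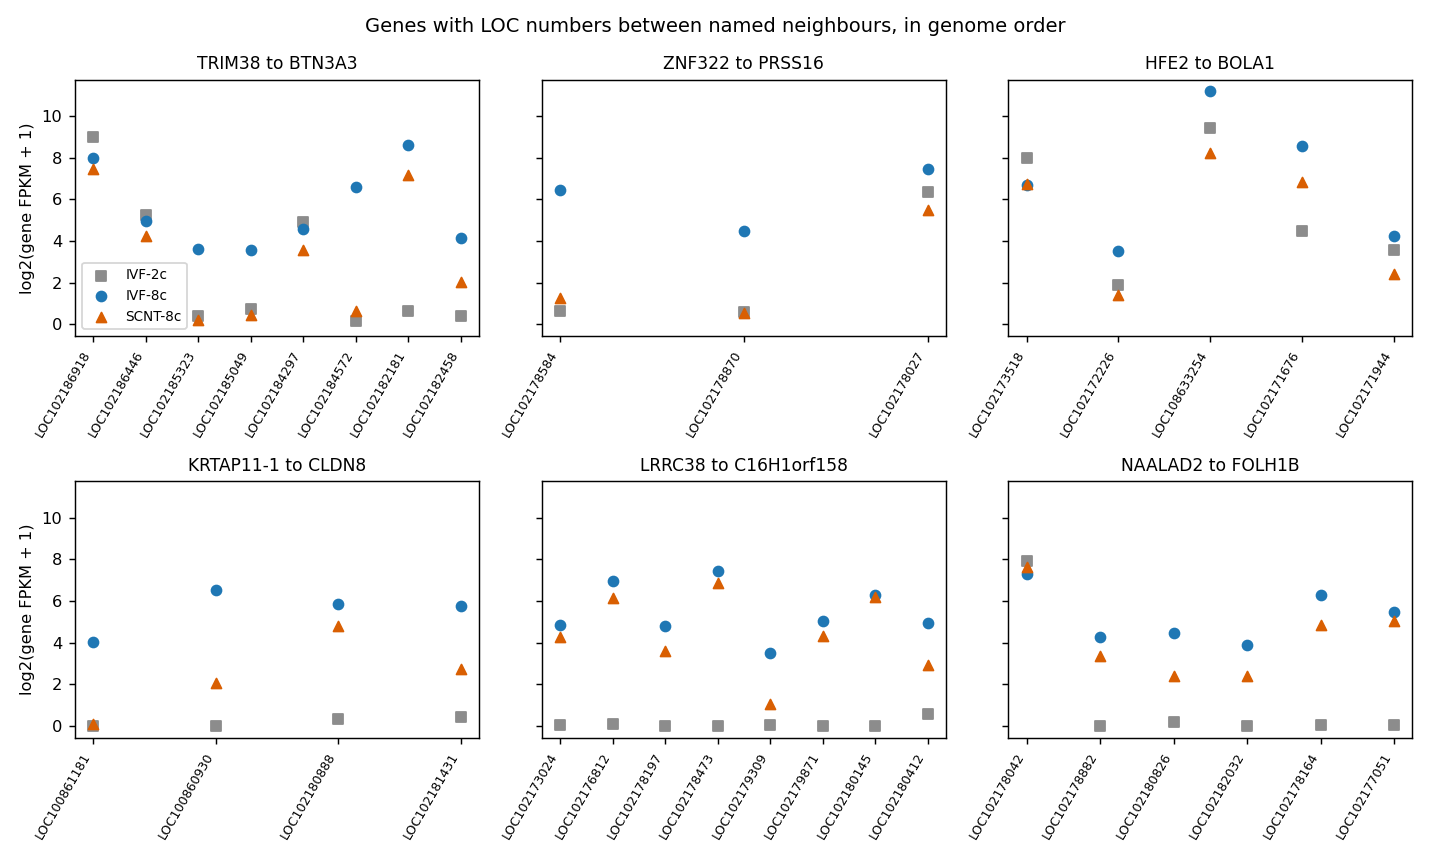
Level of each gene with a LOC number that reached 10 FPKM in IVF-8c or SCNT-8c, as log2(FPKM + 1) of the sum over its transcripts, in 6 stretches between named genes and in the order of the RefSeq table. Each point is 1 library. In 5 of 8, 3 of 3, 4 of 5, 4 of 4, 3 of 8 and 3 of 6 genes, from the first stretch to the last, IVF-8c was above SCNT-8c by a log2 ratio of more than 1. The stretches were chosen because they held runs of such genes.

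Other LOC genes with large ratios, chosen after their values were seen, were LOC102187504 at 53.5 FPKM in IVF-8c, 0.118 in SCNT-8c and 0 in IVF-2c, and LOC102188418 at 77.1, 1.40 and 0.121 FPKM. In the opposite direction LOC102182485 was at 198.4, 434.9 and 0.356 FPKM (log2 ratio -1.13), a transcript that was nearly absent in IVF-2c and highest in SCNT-8c.

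The 2489 mRNAs without a gene name had 104 higher in IVF-8c (4.18%) and 68 in SCNT-8c (2.73%). XM_005702075.1 was at 341.9 FPKM in IVF-8c, 4.61 in SCNT-8c and 5.37 in IVF-2c (log2 ratio 5.93), and XM_013968081.1 at 108.7, 5.52 and 11.7 (4.07). XM_005699608.2 was at 1.48, 104.0 and 62.2 FPKM (-5.41). These 3 were chosen after their values were seen, and all 3 had SCNT-8c and IVF-2c on the same side of IVF-8c. XM_013962331.1, also among the smallest ratios without a gene name, was at 24.2 FPKM in SCNT-8c and 0 in IVF-8c and IVF-2c. Of all mRNAs in the comparison 8 were listed at 0 in 1 of the 8-cell libraries, 4 in each. The pair with the highest levels, named here after their values were seen, were both at 0 in IVF-8c: XM_013977346.1 had 344.9 FPKM in SCNT-8c and 158.3 in IVF-2c, and XM_013973832.1 had 289.0 and 600.3. They had the smallest ratios of all mRNAs, and whether the 0 is a failed estimate is not given in the sources used here.

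The lncRNAs differed far more often than the mRNAs. Of 2388, 777 were higher in IVF-8c (32.5%) and 641 were higher in SCNT-8c (26.8%), and the median log2 ratio was -0.06. Beyond a log2 ratio of 2 were 622 (26.0%) in the direction of IVF-8c and 499 (20.9%) in that of SCNT-8c. A value of 0 in 1 library was common, with 459 lncRNAs listed at 0 in IVF-8c and 453 in SCNT-8c. Without them 324 were higher in IVF-8c and 182 in SCNT-8c, of 1476. The share beyond the limit fell with the level, from 64.8% of 1254 lncRNAs at 10 to 20 FPKM to 35.3% of 153 at 100 to 1000 FPKM and 1 of 10 above 1000 FPKM.

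The most abundant lncRNAs were present in all libraries. TCONS_00564872 was at 2539 FPKM in IVF-8c, 3454 in SCNT-8c and 3209 in IVF-2c (log2 ratio -0.44), and TCONS_00593464 at 1827, 2635 and 3354 (-0.53). TCONS_00165155 was at 1837, 1636 and 1729 (0.17) and TCONS_00563874 at 1620, 1428 and 1719 (0.18). TCONS_00345351, at 2028, 1033 and 1283 (0.97), came closest to the limit and passed it with median-ratio scaling (1.01). TCONS_00601025 (1332, 2299 and 2741) and TCONS_00591854 (828.6, 1490 and 4599) were among the most abundant of SCNT-8c. In these last 2 lncRNAs IVF-2c had the highest level and IVF-8c the lowest.

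Of the lncRNAs above 0 in both libraries, the largest ratios, taken after the values were seen, included some at high levels. TCONS_00239198 was at 548.0 FPKM in IVF-8c and 8.20 in SCNT-8c (log2 ratio 5.90), and TCONS_00046252 at 673.6 and 23.5 (4.79). IVF-2c lists both at 0. In the opposite direction TCONS_00484266 was at 1.55 FPKM in IVF-8c, 30.7 in SCNT-8c and 117.1 in IVF-2c (-3.64), and TCONS_00248352 at 0.0755, 17.9 and 0.0867 (-4.14). The former was thus highest in IVF-2c, the latter in SCNT-8c.

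The lncRNAs listed at 0 in 1 library had the largest ratios of all. Those highest in IVF-8c and at 0 in SCNT-8c were TCONS_00599092, TCONS_00015878, TCONS_00261700, TCONS_00519178 and TCONS_00444641, between 93.3 and 148.7 FPKM. TCONS_00444641 was at 95.3 FPKM in IVF-2c, and the other 4 were listed at 0 there. Those highest in SCNT-8c and at 0 in IVF-8c were TCONS_00001341, TCONS_00398490, TCONS_00102733, TCONS_00653205 and TCONS_00192891, between 81.1 and 157.4 FPKM, and TCONS_00102733 (47.8) and TCONS_00192891 (112.2) were also present in IVF-2c.

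Levels were looked up here for 6 lncRNAs for which primers are listed. The study picked them at random from candidates screened on these same libraries, so their direction in these FPKM is no independent result. The paper also measured them by quantitative PCR in embryos and reports that the outcome matched its sequencing. Those measurements were not examined here. At 10 FPKM in IVF-8c, 4 of the 6 were in the comparison. lncRNA3720 had the highest level, 132.6 FPKM against 15.2 in SCNT-8c (log2 ratio 3.04). lncRNA2642 (3.49), lncRNA1730 (3.48) and lncRNA4517 (3.33) had larger ratios at lower levels. lncRNA3472 and lncRNA4621 reached 8.57 and 7.91 FPKM in IVF-8c and were below the limit of the rule.

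The level in IVF-2c, which the rule did not use, differed between the classes. Of the 247 mRNAs higher in IVF-8c, 87 (35.2%) were under 1 FPKM in IVF-2c and the median was 3.35 FPKM. Of the 124 higher in SCNT-8c, 15 (12.1%) were under 1 FPKM and the median was 16.6. Over all 5363 mRNAs these values were 4.57% and 33.6 FPKM. Beyond a log2 ratio of 2 they were 55.4% and 0.615 FPKM for the 65 mRNAs higher in IVF-8c, and 19.0% and 13.8 FPKM for the 21 higher in SCNT-8c. Most lncRNAs of both classes were under 1 FPKM in IVF-2c: 641 of 777 (82.5%) and 456 of 641 (71.1%), against 49.6% over all 2388. IVF-2c and IVF-8c are libraries of the same kind of embryo, and transcripts at low levels in both 8-cell libraries were left out by the rule.

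**Figure D5:**
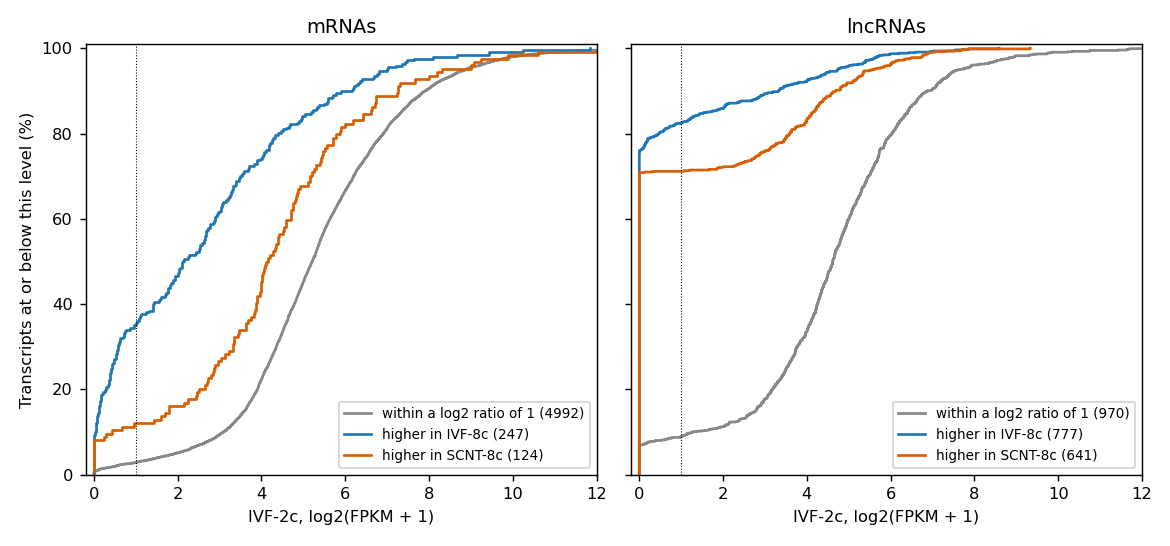
Cumulative share of transcripts (y axis, percent) by their level in IVF-2c as log2(FPKM + 1) (x axis), for mRNAs (left) and lncRNAs (right) in 3 classes of the 8-cell ratio. Each step is 1 transcript, and the dotted line marks 1 FPKM. At 1 FPKM the curve of mRNAs higher in IVF-8c stands at 35.2% and that of mRNAs higher in SCNT-8c at 12.1%.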

How the data were processed

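The authors deposited FPKM values for mRNA transcripts by RefSeq accession and for assembled lncRNA transcripts, 1 column per embryo library. The labels' processing notes name TopHat2 2.0.12, Bowtie2 2.2.3, Cufflinks 2.1.1 and Cuffdiff. The genome build, the annotation and the depth are not given in the sources used here, and the FPKM are estimates that give no whole fragments, so no counting interval is given. Cuffdiff divides reads among transcripts, which makes the levels of isoforms and of close copies estimates.

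Python 3.11.15, numpy 2.4.6, pandas 2.3.3 and matplotlib 3.10.9 were used. The log2 ratio was taken on FPKM + 1, which understates the ratio of low transcripts, for transcripts at 10 FPKM or more in IVF-8c or SCNT-8c. The counting was tested on simulated data with a fixed fold change and no noise, which checks the code and not the calls in these libraries. Gene names came from a RefSeq table of ARS1.2 (28911 genes), matched by accession without its version for 13518 mRNAs. Version and accession both matched for 153 of the mRNAs compared. Genes named in the text are the 10 largest and 10 smallest ratios among mRNAs with a symbol other than a LOC number, the 5 largest and smallest lncRNAs, the 5 most abundant of each library, the genes and lncRNAs of the study, and members of gene lists beyond the limit or most abundant. Others are marked as chosen after their values were seen. The comparison and the lists were chosen with earlier results of these data known. Alternatives were other pseudocounts, minimum levels, scalings, limits and gene sums. Medians are given for lists of 5 or more mRNAs, a limit set after the values were seen. The libraries of GFFs were not used.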

Additional observations from a re-analysis of the deposited data

How the results depend on the processing

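With 1 library per condition, without depth and after cDNA amplification, none of these differences can be set against an error. No paired analysis was possible because each condition had 1 library. In both tables the transcripts higher in IVF-8c outnumbered those higher in SCNT-8c under each alternative run, and the numbers moved with the level and the limit. With no minimum they were 786 and 479 mRNAs and 6398 and 4139 lncRNAs. At 5 FPKM they were 384 and 205 mRNAs and 1705 and 1176 lncRNAs, with a lncRNA median of 0.10. At 20 FPKM they were 165 and 76 mRNAs and 306 and 300 lncRNAs, with a lncRNA median of -0.16. Beyond a log2 ratio of 2 they were 65 and 21 mRNAs, and with FPKM summed per named gene 119 and 26. A pseudocount of 5 left 75 mRNAs higher in SCNT-8c and 186 in IVF-8c. Without transcripts listed at 0 the lncRNAs were 324 and 182. Scaling the libraries by median ratios or to equal mRNA totals, with factors nearly equal between libraries, kept all counts within 1.5 times. The lncRNA median was 0.04 with the former and -0.12 with the latter, so it gives no direction. Of 165 medians of 20 gene lists under alternatives, 154 moved by less than 0.1 and 145 kept their sign. The others were, with no minimum, 0.42 for pluripotency and lineage factors, 0.30 for the respiratory chain and 0 for both lists of histone-modifying enzymes. The median of methyltransferases and demethylases was 0.061 at 5 FPKM and 0.11 at 20 FPKM, and that of acetyltransferases and deacetylases -0.49 with a pseudocount of 5. DNA damage and p53 targets moved to 0.15 at 20 FPKM and to -0.17 with equal totals. With only accessions whose version matched, oocyte genes moved to -0.28 and glycolysis to -0.83. A median over fewer than 3 mRNAs was not taken, which left out 15 values. The 84 named transcripts kept their direction with a pseudocount of 0.1 and with median-ratio scaling. A pseudocount cannot change a direction and the scaling was small, so this outcome was all but fixed in advance. TCONS_00345351 alone crossed the limit. The cause of these movements was not tested.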
